A study of Homo sapiens with 6 samples.

Results

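Neural cell adhesion molecules of the immunoglobulin (Ig) family were examined in parental SH-SY5Y neuroblastoma (NB) cells and in SY5Y-TR1 cells, their subline resistant to the anaplastic lymphoma kinase (ALK) inhibitor TAE684. The 10 genes NCAM1, NCAM2, L1CAM, CHL1, NRCAM, NFASC, CNTN1, CNTN2, CADM1 and CADM3, out of 19752 genes measured, were taken by symbol. No filter on their values was used, but earlier results of these data were known when the set was chosen. All 10 were represented, by 36 probe sets in all, and each gene is described by its brightest probe set over the 6 arrays. Both lines carry the ALKF1174L mutation according to the labels, and each was measured on 3 arrays. SH-SY5Y cells grew in plain medium, whereas SY5Y-TR1 cells were kept in medium with 1 μM TAE684, so that the presence of the drug and the selected state cannot be told apart. SY5Y-TR1 is an individual subclone expanded from cells exposed to rising doses, so the comparison is between a clone and its parental line. The labels and the methods call the arrays biological replicates, the cultures are not described, and the p-values measure the spread between these samples, which may be technical.

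These proteins share extracellular Ig domains, often followed by fibronectin type III repeats, and hold neurons and glia together by binding to themselves or to each other. NCAM1 and NCAM2 are homophilic adhesion receptors, and NCAM1 is the main carrier of polysialic acid in developing neural tissue. L1CAM, CHL1, NRCAM and NFASC form the L1 family, whose cytoplasmic tails bind ankyrins and through them the spectrin skeleton in axons. The contactins CNTN1 and CNTN2 have no cytoplasmic tail and are held in the membrane by a lipid anchor, and the nectin-like molecules CADM1 and CADM3 join cells at synapses and at other contacts.

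Expression is given as the log2 signal of robust multi-array average (RMA). A gene passed as higher or lower where the lines differed by 2-fold or more and limma, which fits all genes together, gave an adjusted p under 0.05. The table holds no calls of presence, so the 90th percentile of 43 genes of unrelated tissues, 5.65 in log2 units, served as the background level, and their 95th percentile of 6.69 as a stricter one. For a gene at or under that level on all arrays of the dimmer line, only a lower bound of the fold is given, which sets the brighter line's mean over the background level. Signals of different probe sets are not comparable as amounts of mRNA, and in RNA from whole cultures fewer expressing cells and less mRNA per cell cannot be told apart.

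Of the 10 adhesion genes, 4 were lower in SY5Y-TR1 cells, none was higher and 6 did not pass, by limma at the 2-fold limit. Over all genes measured, 11.4% passed by the same rule, 5.99% as lower and 5.36% as higher. The arrays of the lines did not overlap for 7 of the 10 genes, against 59.8% of all genes. Without the fold limit 6 of the 10 were lower and 1 was higher by limma, against 24.4% of all genes lower and 52.9% passing in either direction. The added ones were NCAM1 and CHL1, which were lower, and NFASC, which was higher. The genes that fell were NRCAM, CNTN1, CADM1 and L1CAM, and the median log2 fold change was -0.42 over the 10 genes and 0.04 over all genes.

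**Figure D1:**
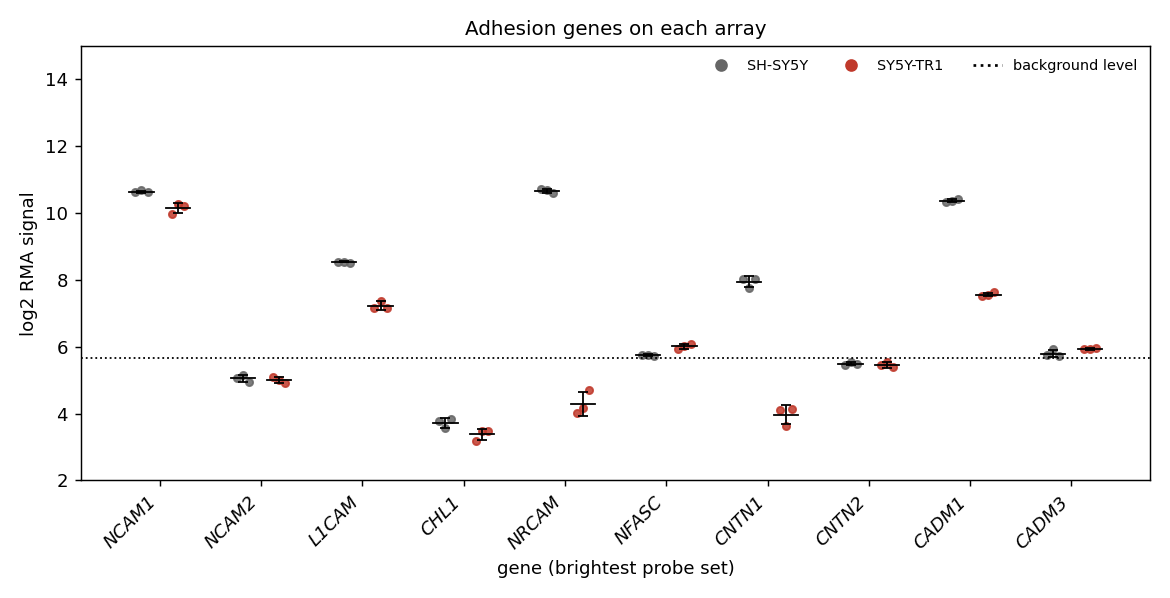
Log2 RMA signal (y axis) of each of the 10 adhesion genes (x axis) on every array, each gene being shown by its brightest probe set; grey points show the 3 SH-SY5Y arrays and red points the 3 SY5Y-TR1 arrays, with mean and SD as bars and a dotted line at the background level (5.65). NRCAM and CNTN1 drop from 10.67 and 7.94 to below the dotted line, CADM1 and L1CAM drop but stay above it, and NCAM1 stands at 9.97 or more on all 6 arrays.

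The reference sequence before a transcription start is shown for the genes that fell and for which it was given. The windows are the 250 bases upstream of the outermost RefSeq start given for each gene (build GRCh38.p14), on the strand of the gene, for NRCAM chr7:108456437-108456686 (minus strand), for CNTN1 chr12:40827934-40828183 (plus strand) and for L1CAM chrX:153876015-153876264 (minus strand).
NRCAM: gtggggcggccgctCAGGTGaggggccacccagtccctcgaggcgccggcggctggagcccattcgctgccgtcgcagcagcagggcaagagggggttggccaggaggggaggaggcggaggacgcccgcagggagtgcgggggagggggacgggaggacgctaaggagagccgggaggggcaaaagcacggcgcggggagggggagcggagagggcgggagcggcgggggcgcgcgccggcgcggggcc
CNTN1: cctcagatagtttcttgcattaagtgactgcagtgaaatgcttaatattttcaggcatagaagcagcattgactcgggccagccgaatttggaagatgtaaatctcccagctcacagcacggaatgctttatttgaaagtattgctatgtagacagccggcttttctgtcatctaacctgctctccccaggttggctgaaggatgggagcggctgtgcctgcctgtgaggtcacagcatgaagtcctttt
L1CAM: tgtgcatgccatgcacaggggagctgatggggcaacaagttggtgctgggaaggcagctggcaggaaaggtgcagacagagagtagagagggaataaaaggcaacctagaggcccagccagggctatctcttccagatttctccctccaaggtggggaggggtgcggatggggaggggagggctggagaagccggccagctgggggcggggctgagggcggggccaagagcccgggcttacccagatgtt
Capitals mark CAGGTG or its reverse complement CACCTG, the form of E-box bound by SNAI and ZEB repressors. The NRCAM window holds one match, which starts at position -236 from the transcription start, and its GC content was 78.4%, against 62.8% for the L1CAM window, 47.2% for the CNTN1 window and a median of 58.0% over all windows. RefSeq entries were matched for 8 of the 10 genes, with 16 windows, of which 2 hold the motif. The other is the NFASC window at chr1:204828402-204828651 (plus strand), with the match at -201. Among all 35116 windows of this length, 17.5% hold it. A match describes the letters and is not a binding site.

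The L1 family held NRCAM, whose log2 signals differed most among the 10 genes, and also genes near or under the background level. NRCAM, which clusters sodium channels at nodes of Ranvier together with neurofascin, read 10.71, 10.69 and 10.60 on the SH-SY5Y arrays and 4.01, 4.17 and 4.70 on the SY5Y-TR1 arrays. All SY5Y-TR1 arrays lay under the background level, with replicate 3 the highest of them. NRCAM was at least 32.5-fold lower, or at least 15.8-fold with the higher background level of 6.69 (log2 fold change -6.38 with a standard error of 0.17, limma adjusted p = 1.6e-07). The other NRCAM probe set, which may cross-hybridize according to its name, passed as lower too, from 6.49 ± 0.09 to 4.47 ± 0.33 (SD, n = 3 arrays each), or at least 1.8-fold. Its SH-SY5Y signal was itself under the higher background level of 6.69, which allows no bound. The mean of both probe sets gave a log2 fold change of -4.20. Both NRCAM probe sets carry names that mark shared sequence.

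L1CAM, the founding member of the family and a receptor for axon growth and bundling, read 8.55, 8.55 and 8.52 in SH-SY5Y cells and 7.17, 7.38 and 7.15 in SY5Y-TR1 cells. The lines did not overlap, and L1CAM stayed above the background level in both. It was 2.47-fold lower (log2 fold change -1.31 with a standard error of 0.07, limma adjusted p = 3.75e-06). The other L1CAM probe set lay under the background level on all arrays, at 5.33 ± 0.12 and 5.45 ± 0.02 (SD, n = 3 arrays each). With the mean of both probe sets the log2 fold change of L1CAM was -0.59, under the 2-fold limit.

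CHL1, the close homologue of L1, read from 3.56 to 3.84 in SH-SY5Y cells and from 3.19 to 3.48 in SY5Y-TR1 cells. The lines did not overlap (log2 difference -0.34, adjusted p = 0.0295 from limma). Both CHL1 probe sets were under the background level in each line, where a change in expression cannot be read from the signal. NFASC, which organizes the axon initial segment and the node, was close to that level in both lines, at 5.74 ± 0.03 in SH-SY5Y and 6.01 ± 0.08 in SY5Y-TR1 cells (SD, n = 3 arrays each). Its log2 difference of 0.27 (95% confidence interval 0.15 to 0.40) did not reach the fold limit and became -0.06 when arrays were centred on housekeeping genes. The other 3 NFASC probe sets had log2 differences from 0 to 0.41 and did not pass, and only one of them exceeded the background level, on 1 array of each line. With the background level of 6.69 NFASC was not above it on any array.

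CNTN1, a partner of the Caspr proteins and of sodium channels at the axon surface, read 8.04, 7.75 and 8.04 in SH-SY5Y and 4.12, 3.64 and 4.15 in SY5Y-TR1 cells. The values in SY5Y-TR1 cells all lay under the background level. CNTN1 was at least 4.91-fold lower, or at least 2.39-fold with the higher background level (log2 fold change -3.98 with a standard error of 0.15, limma adjusted p = 8.77e-07). A second CNTN1 probe set fell from 6.86 ± 0.19 to 3.07 ± 0.15 (SD, n = 3 arrays each), at least 2.31-fold, or at least 1.12-fold with the higher background level. Another one started nearer to the background level in SH-SY5Y cells and passed with a log2 fold change of -1.21. For it the background level allows only a bound of at least 1.26-fold, and the higher level allows none. The last was under the background level in both lines, and the mean of all 4 gave a log2 fold change of -2.25. CNTN2, known as TAG-1 and found beside the node together with CNTNAP2, read 5.49 ± 0.05 and 5.45 ± 0.08 (SD, n = 3 arrays each), under the background level on all arrays, as did its other probe set.

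CADM1, a nectin-like adhesion molecule of synapses and epithelia that was first described as a tumour suppressor, read 10.33, 10.37 and 10.42 in SH-SY5Y cells. In SY5Y-TR1 cells it read 7.52, 7.54 and 7.63. The decrease exceeded the spread between arrays by far, although CADM1 stayed above the background level in both lines. It was 7.02-fold lower (log2 fold change -2.81 with a standard error of 0.05, limma adjusted p = 3.43e-08). All 3 CADM1 probe sets above the background level passed with log2 fold changes of -2.81, -2.73 and -2.35. The 3 remaining CADM1 probe sets were under it in both lines, and the mean of all 6 gave -1.33. Its relative CADM3 read 5.80 ± 0.11 and 5.94 ± 0.02 (SD, n = 3 arrays each), just over the background level, with overlapping lines and a log2 difference of 0.14 (95% confidence interval -0.01 to 0.29). With housekeeping centring that difference was -0.19.

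NCAM1 was retained at a high signal. It read 10.62, 10.68 and 10.62 in SH-SY5Y cells and 9.97, 10.27 and 10.20 in SY5Y-TR1 cells, so the lines did not overlap. Its log2 difference of -0.49 (95% confidence interval -0.69 to -0.30, adjusted p = 0.00157 from limma) corresponds to 1.41-fold and did not reach the 2-fold limit. A second bright NCAM1 probe set had a log2 difference of -0.54, whereas the dimmer pair above the background level had differences of -0.16 and -0.25 with adjusted p-values of 0.268 and 0.187 from limma over all probe sets. The 3 other NCAM1 probe sets and all 3 of NCAM2, which guides olfactory axons, were under the background level in both lines. NCAM1-AS2, an RNA transcribed from the strand opposite to NCAM1 and chosen for mention after its values were seen, was 2.69-fold lower (log2 fold change -1.43, standard error 0.10).

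**Figure D2:**
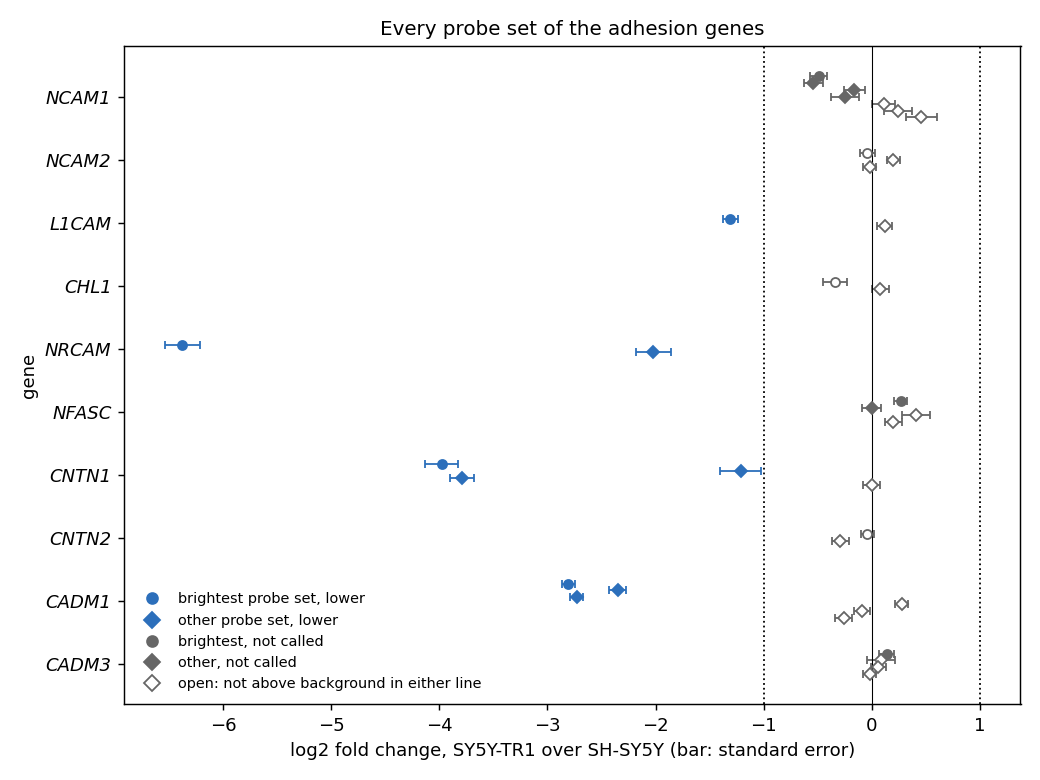
Log2 fold change of SY5Y-TR1 relative to SH-SY5Y cells (x axis) of each of the 36 probe sets of the 10 adhesion genes (y axis), where bars span the standard error from 3 arrays per line; circles are the brightest probe set of a gene, diamonds its other probe sets, blue marks probe sets that passed as lower, open symbols those under the background level in both lines, and dotted lines mark 2-fold. The 9 blue symbols belong to L1CAM, NRCAM, CNTN1 and CADM1, and the 20 open symbols lie between -0.34 and 0.46.

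At the level of probe sets, 9 of 36 passed as lower and none as higher, against 4.58% lower and 3.79% higher among all 54613 probe sets tested with limma. At an unadjusted p under 0.05 and no fold limit, 14 of the 36 were lower and 6 higher, against 22.5% and 24.8% of all probe sets. The 16 that exceeded the background level on any array comprised these 9 and another 7 of NCAM1, NFASC and CADM3 that did not pass. None of the 20 under it in both lines passed.

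Relatives outside the 10 genes changed in both directions. Of 30 measured genes of other Ig-family adhesion molecules, 4 were lower, 3 were higher and 23 did not pass, with a median log2 fold change of 0.07. The contactins CNTN4 and CNTN3 were at least 5.13-fold and 6.41-fold lower, or at least 2.5-fold and 3.12-fold with the higher background level, whereas CNTN5 and CNTN6 lay under the background level in both lines. LSAMP, a lipid-anchored IgLON protein of limbic neurons, was 5.37-fold lower, with 5 of its 6 probe sets passing. Its SY5Y-TR1 arrays read 6.02 or less, under the stricter level of 6.69, with which only a smaller lower bound would hold. SDK1, a homophilic molecule of retinal synapses, was at least 1.64-fold lower from a signal of 6.36. KIRREL1, a relative of nephrin, was 4.83-fold higher by 2 of 3 probe sets, all of them above the background level, and the mean of the 3 gave a log2 fold change of 1.27 instead of 2.27. THY1, a lipid-anchored glycoprotein of neurons and fibroblasts, was 2.5-fold higher through all 3 of its probe sets. The epithelial nectin NECTIN4 was at least 1.64-fold higher, at a mean of 6.36 in SY5Y-TR1 cells. Neither SDK1 nor NECTIN4 exceeded the stricter level of 6.69 on average, and with values raised to 5.65 their log2 fold changes of -0.71 and 0.72 did not pass. With housekeeping centring THY1 and NECTIN4 had log2 fold changes of 0.99 and 0.70 and did not pass, and the 30 genes then held 6 lower and 1 higher. The balance of directions in this list thus depended on the scaling. NECTIN4 also fell under the limit without SH-SY5Y replicate 1 (0.98) or SY5Y-TR1 replicate 1 (0.93).

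**Figure D3:**
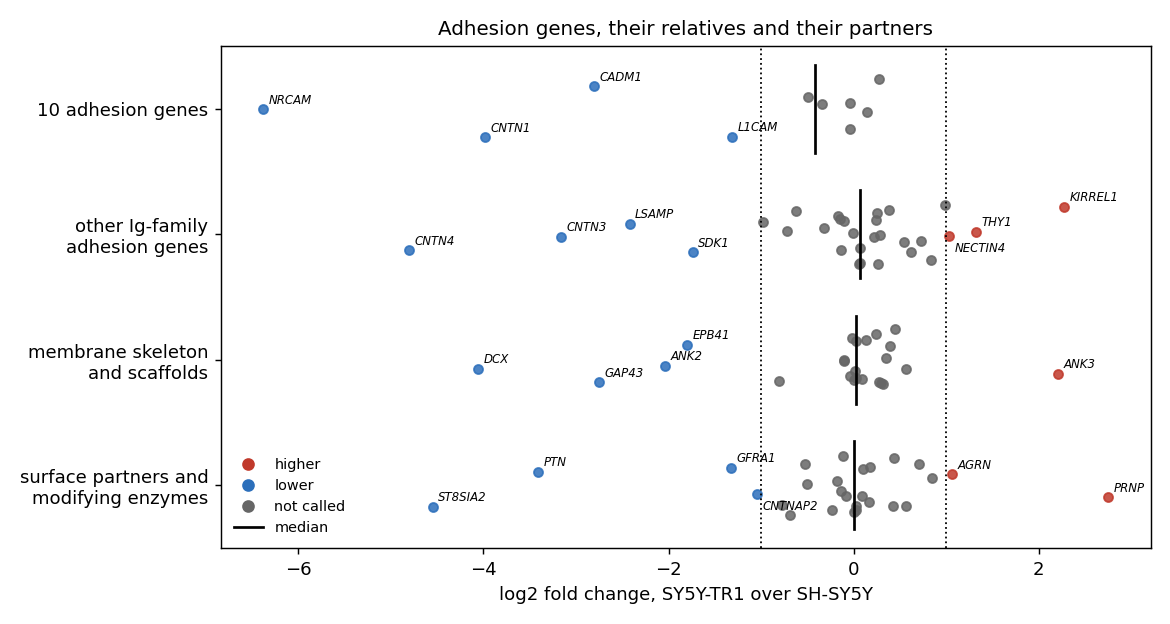
Log2 fold change of SY5Y-TR1 relative to SH-SY5Y cells (x axis) of the 10 adhesion genes and of the measured genes of 3 related lists (y axis, points spread vertically for legibility); red points passed as higher, blue points as lower, grey points did not pass, vertical bars are medians with dotted lines at 2-fold. From the 10 genes onward the medians read -0.42, 0.07, 0.03 and 0, and NRCAM lies farthest to the left.

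Among 24 membrane skeleton and scaffold proteins that these receptors bind or act beside, 4 were lower, 1 was higher and 19 did not pass, with a median log2 fold change of 0.03. ANK3 and ANK2 changed in opposite directions. ANK3, which encodes the ankyrin-G that gathers L1-family proteins at the axon initial segment, rose from 7.88 ± 0.09 to 10.09 ± 0.09 (SD, n = 3 arrays each), or 4.64-fold, and 3 of its 5 probe sets passed. ANK2, which encodes ankyrin-B, fell from 8.51 ± 0.08 to 6.46 ± 0.21 (SD, n = 3 arrays each), or 4.12-fold, by the one probe set that was above the background level. The ANK3 call was not made with probe sets free of shared-sequence names (log2 fold change 0.77), nor the ANK2 call with the mean of its 4 probe sets (-0.64). The mean of all ANK3 probe sets gave 1.31. DCX, a microtubule protein of migrating neuroblasts that also binds neurofascin, was at least 5.16-fold lower (2.51-fold with the higher background level) and the growth cone protein gene GAP43 6.72-fold lower, each by all of its probe sets, with a mean over those of GAP43 of -1.89 on the log2 scale. EPB41, which joins spectrin to actin, was 3.48-fold lower by 1 of 4 probe sets and missed the limit when its probe sets were averaged (log2 fold change -0.62).

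Of 27 surface partners and modifying enzymes, 4 were lower, 2 were higher and 21 did not pass, with a median log2 fold change of 0. ST8SIA2, a polysialyltransferase whose substrate is NCAM1, was at least 5.92-fold lower (2.88-fold with the higher background level), from 8.21 ± 0.08 to 3.66 ± 0.16 (SD, n = 3 arrays each). Its other probe set was not above the background level, and the mean of both gave a log2 fold change of -2.51. ST8SIA4, the other enzyme of this kind, was close to the background level, at 6 ± 0.15 in SH-SY5Y and 5.49 ± 0.07 in SY5Y-TR1 cells (SD, n = 3 arrays each). All SY5Y-TR1 arrays lay under that level, and the log2 difference of -0.51 did not pass. PTN, which encodes the heparin-binding growth factor pleiotrophin, was 10.6-fold lower by 3 of 4 probe sets, although the probe set free of a shared-sequence name, which was not above the background level, had a log2 fold change of 0.18 and the mean of all 4 one of -2.61. GFRA1, a receptor for GDNF that can act together with NCAM1, was 2.51-fold lower by 1 of 3 probe sets. Of the GFRA1 probe sets 2 were above the background level. CNTNAP2, the Caspr2 partner of CNTN2, was 2.05-fold lower by 1 of 4 probe sets, although all 4 were above that level. Neither gene passed with the mean of its probe sets (log2 fold changes -0.93 and -0.88). CNTNAP2 also missed the limit without SY5Y-TR1 replicate 1 (-0.98). PRNP, the prion protein gene, was 6.73-fold higher by both of its probe sets. AGRN, the proteoglycan of neuromuscular synapses, was 2.08-fold higher by 1 of 4 probe sets, although all 4 were above the background level. It did not pass with the mean of its probe sets (log2 fold change 0.48), without shared-sequence names (0.11), with housekeeping centring (0.72) or without SH-SY5Y replicate 3 (0.96).

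**Figure D4:**
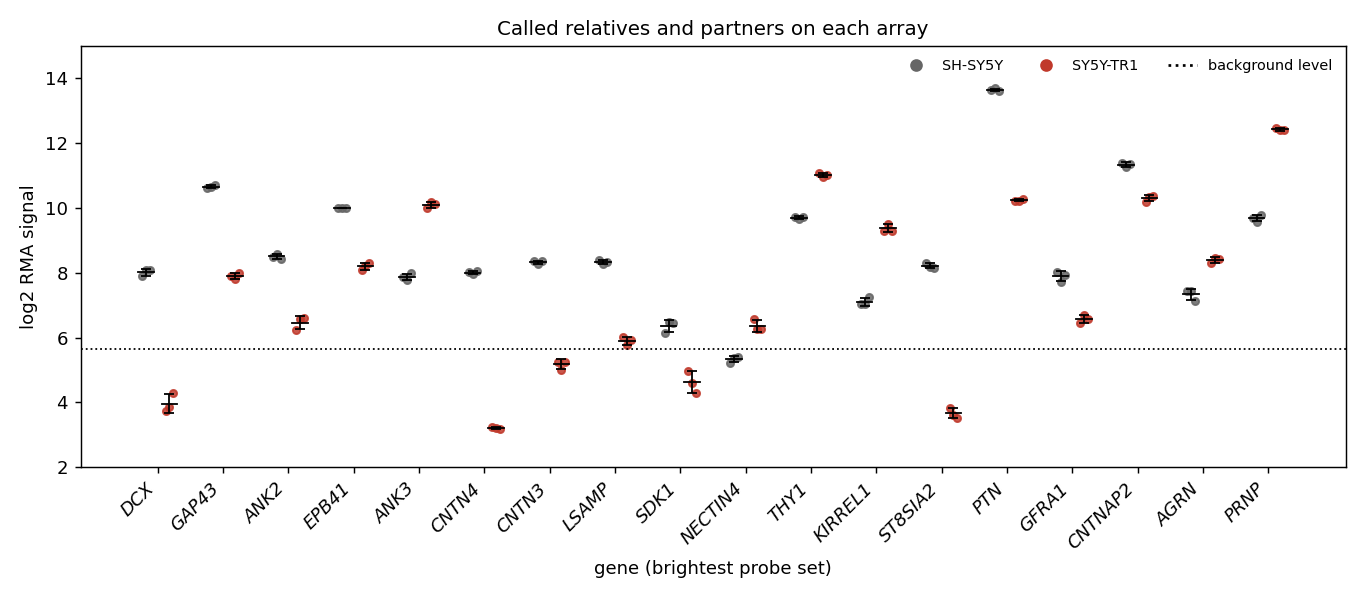
Log2 RMA signal (y axis) of the 18 called genes of the 3 related lists (x axis) on every array; grey points show the 3 SH-SY5Y arrays and red points the 3 SY5Y-TR1 arrays, with mean and SD as bars and a dotted line at the background level (5.65). CNTN4, CNTN3, SDK1, DCX and ST8SIA2 fall below the dotted line in SY5Y-TR1 cells, and ANK3, KIRREL1, THY1 and PRNP rise while already above it in SH-SY5Y cells.

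Some markers of neuroblasts and fibroblasts changed too, those of fibroblasts in both directions. Of 7 measured noradrenergic neuroblast markers 4 were lower (STMN2, DBH, GATA3 and PHOX2A), and their mean log2 signal ran from 9.76 to 9.78 on the SH-SY5Y arrays and from 7.88 to 8.02 on the SY5Y-TR1 arrays. TH was under the background level in both lines, and the other 6 were above it. Of 7 fibroblast markers COL1A1 and PDGFRB were higher and LUM, PDGFRA and DCN lower, with mean log2 signals of 9.39 to 9.46 in SH-SY5Y and 8.95 to 9.11 in SY5Y-TR1 cells. None of the 6 Schwann and glial, 5 blood cell and 6 endothelial markers was called by limma with the fold limit, and their mean log2 signals lay between 4.79 and 5.06 on all arrays. At an unadjusted p under 0.05 without that limit 4 of these markers were higher and 1 was lower, against 24.8% and 22.5% of all probe sets. Of these lists 3, 3 and 4 markers, S100B, PTPRC and CDH5 among them, lay under the background level on all arrays, whereas ERBB3, SOX10, ITGAM, HBB and PECAM1 exceeded it on all arrays with signals of 6.28 or less. The part of these marker changes in the adhesion results was not tested.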

How the data were processed

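Total RNA from 3 SH-SY5Y and 3 SY5Y-TR1 samples was measured on Affymetrix U133 Plus 2.0 human arrays. The authors deposited log2 values from RMA, made per the submitters' processing notes with Affymetrix Expression Console (version not given in the sources used here), already background corrected, quantile normalized and summarized, with medians from 5.56 to 5.59 per array. Quantile normalization fixes each array's distribution, so a shift shared by most genes would not be seen. The number of arrays limits the precision. After 62 control probe sets were left out, 54613 remained, of which 41091 had 1 symbol in the platform annotation, 1801 several and 11721 none. Symbols were updated through RefSeq (GRCh38.p14), which matched 41037 by gene ID.

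Each of 19752 genes was represented by its brightest probe set. Lines were compared with limma 3.58.1 (lmFit, eBayes) in R 4.3.3, Benjamini-Hochberg adjusted over all genes, and the procedure was tested on simulated data. Those data held independent noise and did not model cross-hybridization or shared cultures. The 2-fold limit set the calls, since all 2243 genes past it passed the adjusted p. Named genes are the 10 members and, from each related list, up to 4 called genes in each direction. Outside this rule CNTN5, CNTN6, ST8SIA4, NCAM1-AS2 and cell type markers are named. The members and lists were chosen with earlier results of these data known. Some listed genes had no probe set with 1 symbol in the table and are not analysed here. Alternatives were other probe set choices, scalings, filters and thresholds, a replicate block, the methods' t-test and each array left out.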

Additional observations from a re-analysis of the deposited data

How the results depend on the processing

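NRCAM, CNTN1, CADM1 and L1CAM were the only members called in 14 of 18 alternatives. The count of called members was 3 with the mean of all probe sets (L1CAM lost), 3 without shared-sequence names (no probe set for NRCAM), 3 at a fold of at least 4, and 7 with no fold limit, and it stayed at 4 when each array was left out. The 9 member probe sets were called under all 11 alternatives run for them, which did not include values raised to the background level. Among the 9, the dimmer NRCAM probe set and the dimmest called one of CNTN1 have bounds of only 1.8-fold and 1.26-fold over that level. These bounds are under the 2-fold limit, so the 11 alternatives cannot show that these calls withstand the background level. With no fold limit the count over all genes was 10443 instead of 2243, and those of other Ig-family adhesion genes, skeleton and scaffold partners, and surface partners and enzymes were 20, 14 and 17 instead of 7, 5 and 6. At a fold of at least 4 there were 747 genes, 4 other Ig-family adhesion genes and 3 surface partners and enzymes. The last list also had 3 calls with the mean of all probe sets, 3 with the mean of probe sets above the background level (chosen after seeing the data) and 2 without shared-sequence names. Without such names 24 of its genes could be tested, and PRNP and CNTNAP2 had no probe set left. The same held for THY1 and DCX of the other lists. Leaving out each array gave 2234 to 2279 genes, 6 to 8 other Ig-family genes, 5 to 5 skeleton and scaffold genes and 5 to 6 surface partners and enzymes.

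Signs turned for 4 genes. NCAM2 went from -0.04 to 0.05 with the mean of its probe sets and to 0.01 without SH-SY5Y replicate 2 (range -0.09 to 0.01 over the arrays left out), CADM3 from 0.14 to -0.02 without shared-sequence names and to -0.19 with housekeeping centring, NFASC from 0.27 to -0.06 with housekeeping centring, and PTN from -3.41 to 0.18 when such names were left out. Scaling by 20 housekeeping genes moved the median log2 fold change of all genes by -0.33, and the split over all genes from 1059 higher and 1184 lower (47.2% higher) to 664 and 1864 (26.3% higher). Each array was centred on the median signal of these 20 genes, whereas the median of their own log2 fold changes was 0.12. Centring by the latter was not tried, and the cause of the housekeeping difference was not tested. The replicate block called 4 members and 2243 genes and changed no call among those counts, and the methods' t-test gave the same 4 and 2243. Same-numbered arrays did not deviate together (r = 0.02, 0.06 and 0.01). The labels state no pairing, and such low values cannot exclude it. At signals near the background level, as for CHL1, NCAM2, CNTN2, NFASC and CADM3, a change in expression may not be detectable.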
